A study of Mus musculus with 3 samples.

Results

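The 10 genes described here encode the isoenzymes of the regulated and terminal steps of glycolysis: hexokinases (Hk1, Hk2, Hk3), phosphofructokinases (Pfkl, Pfkm, Pfkp), the enzymes that set the main activator of phosphofructokinase (Pfkfb3, Pfkfb4) and lactate dehydrogenases (Ldha, Ldhb). They were taken by symbol, 10 of the 31053 genes in the count files, and each symbol was listed once. Their UMIs (unique molecular identifiers, each standing for 1 captured transcript) were read in stromal cells and in macrophages of ectopic masses that had formed under the skin of female CD-1 mice, aged 6 to 8 weeks, and were collected on day 5. There were 3 libraries, 1 per condition, each prepared from several masses that the counts do not separate. Matrigel-only masses were implants without BMP2 in mice that received nothing by mouth. Vehicle masses were implants of Matrigel with recombinant human BMP2 in mice given corn oil and DMSO daily, and Palo masses were the same BMP2 implants in mice given palovarotene, an agonist of the retinoic acid receptor gamma, at 4 mg/kg daily. Vehicle therefore differed from Matrigel-only in BMP2 and in the oral vehicle, which cannot be told apart.

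Hexokinases phosphorylate glucose and thereby keep it in the cell, and phosphofructokinases make the first committed intermediate of glycolysis, as tetramers of liver (Pfkl), muscle (Pfkm) and platelet (Pfkp) subunits. Pfkfb3 and Pfkfb4 are bifunctional enzymes that make and remove a sugar bisphosphate which activates phosphofructokinase, and Pfkfb3 is the one with much the higher kinase activity. Lactate dehydrogenase is a tetramer of A and B subunits that turns pyruvate into lactate and restores the NAD+ that glycolysis uses, and the A subunit is the form typical of glycolytic tissue. Cartilage has no blood vessels, and its cells are known to live largely on glycolysis, while macrophages raise it on inflammatory activation. Several of these genes, among them Hk2, Pfkfb3, Pfkfb4 and Ldha, are textbook targets of the hypoxia-inducible factors.

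The core letters that those factors bind are ACGTG and GCGTG, so the RefSeq promoter windows of the members (250 bases upstream of each annotated start, build GRCm38.p6, which is mm10) were searched for both on both strands. All 10 members matched, with 16 windows. Of the 16 windows, 14 (87.5%) held at least 1 match and 7 (43.75%) at least 2, where a palindrome counts once on each strand, and of 32851 windows of 27025 genes 38.6% held at least 1 and 16.7% at least 2. Windows of 1 gene can overlap: a pair of Pfkm windows shared the same GCGTG site, so the 16 windows are not independent. The windows of Hk2, Pfkp, Ldha and Ldhb are printed because the results below turn on these genes and because their upstream bases were free of annotated exons, apart from 6 bases of the Pfkp window nearest the start, which were left off. Both Ldha windows are given. All read 5′ to 3′ on the strand of the gene, with matches in capitals (CACGT and CACGC are the motifs read on the other strand), and Hk2 lies at chr6:82774455-82774704, Pfkp at chr13:6648778-6649021 and Ldhb at chr6:142507958-142508207, each on the minus strand, while the Ldha windows lie at chr7:46845554-46845803 and chr7:46846832-46847081 on the plus strand.
Hk2: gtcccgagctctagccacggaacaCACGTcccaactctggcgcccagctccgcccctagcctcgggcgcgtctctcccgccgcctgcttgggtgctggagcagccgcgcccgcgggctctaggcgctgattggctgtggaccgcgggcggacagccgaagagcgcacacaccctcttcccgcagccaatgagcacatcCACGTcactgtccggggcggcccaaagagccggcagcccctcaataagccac
Pfkp: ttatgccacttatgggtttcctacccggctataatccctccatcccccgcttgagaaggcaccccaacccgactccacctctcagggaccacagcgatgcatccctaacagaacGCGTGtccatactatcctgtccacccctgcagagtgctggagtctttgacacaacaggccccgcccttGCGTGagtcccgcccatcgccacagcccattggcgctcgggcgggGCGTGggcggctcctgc
Ldha, upstream start: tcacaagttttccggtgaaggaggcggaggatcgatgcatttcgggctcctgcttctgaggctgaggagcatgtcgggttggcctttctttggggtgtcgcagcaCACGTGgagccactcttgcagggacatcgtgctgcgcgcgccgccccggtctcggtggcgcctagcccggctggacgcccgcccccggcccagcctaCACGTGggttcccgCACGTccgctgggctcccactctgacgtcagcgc
Ldha, downstream start: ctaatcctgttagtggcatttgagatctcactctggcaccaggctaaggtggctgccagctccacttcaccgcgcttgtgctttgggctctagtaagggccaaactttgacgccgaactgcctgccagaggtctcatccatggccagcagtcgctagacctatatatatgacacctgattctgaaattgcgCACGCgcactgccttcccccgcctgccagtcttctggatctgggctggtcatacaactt
Ldhb: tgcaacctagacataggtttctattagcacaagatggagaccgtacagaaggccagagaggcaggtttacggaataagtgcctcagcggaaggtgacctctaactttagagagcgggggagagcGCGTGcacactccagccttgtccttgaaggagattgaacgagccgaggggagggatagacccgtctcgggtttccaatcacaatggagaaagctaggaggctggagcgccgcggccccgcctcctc
Hk2 held ACGTG at 226 and 52 bases before the start. Pfkp held GCGTG at 136, 68 and 23 bases. The upstream window of Ldha held 2 palindromes and 1 further ACGTG, counted as 5 matches, but its start is not the start of a GENCODE vM21 transcript, and the downstream window held 1 GCGTG. Ldhb also held 1 GCGTG. These are matches of letters, and binding was not measured. Gene positions below are those of GENCODE vM21 on mm10.

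Of 8728, 5478 and 7297 cells that passed the filters in Matrigel-only, Vehicle and Palo, 2085, 1373 and 1184 were stromal cells, in which Col1a1, Col1a2, Col3a1, Dcn and Lum made up at least 1% of UMIs, and 5812, 3253 and 5661 were macrophages, below that limit and with a UMI of Csf1r or C1qa. Between 0.5% and 2% of UMIs, near that limit, lay 38, 99 and 8 stromal cells and 33, 23 and 4 macrophages. Levels are given in CPM, the counts-per-million unit, which scales the UMIs of a gene to all UMIs of the library's class. The 7 stromal markers not used for gating summed to between 10059 and 12593 CPM in stromal cells and to at most 138 in macrophages, and the 8 further macrophage markers to between 16197 and 21761 in macrophages and to at most 774 in stromal cells. Vehicle stroma was split by Acan, the aggrecan gene of cartilage: 779 cells had an Acan UMI and 594 did not, against 1 cell in Matrigel-only and 4 in Palo. The 10 chondrocyte markers in the files summed to 8136 CPM in the Acan cells, 409 in the other Vehicle stroma, 75.0 in Matrigel-only and 123 in Palo. Stromal cells had medians of 9082, 17114 and 12955 UMIs and macrophages of 3090.5, 3646 and 4254 in Matrigel-only, Vehicle and Palo, and 11 to 21 barcodes were shared by each pair of libraries. With 1 library per condition there is no replicate error and no test: cells of 1 library are not replicates, and the 95% intervals below cover counting error only.

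**Figure D1:**
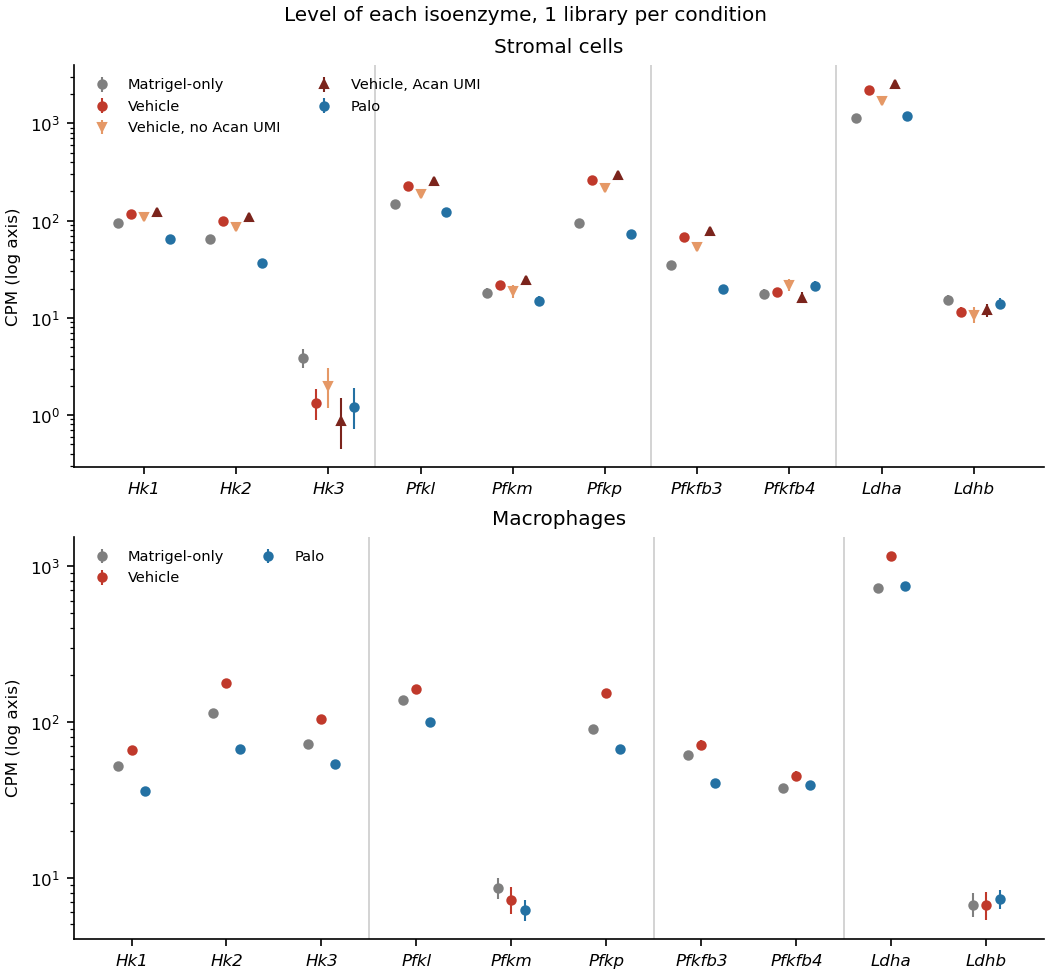
Level of each of the 10 genes in CPM (log axis) for stromal cells (top) and macrophages (bottom), with exact Poisson 95% intervals. Grey is Matrigel-only, red is Vehicle, blue is Palo, and triangles are the Vehicle stromal cells without (down) and with (up) an Acan UMI. Pfkp, Pfkfb3 and Ldha sit highest in Vehicle stroma, and Ldhb does not.

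Hk2 (chr6:82725025-82774454), the inducible hexokinase of growing and glycolytic cells, was highest in Vehicle and lowest in Palo in both classes. In stromal cells its level was 65.0 CPM for Matrigel-only, 99.3 for Vehicle and 36.5 for Palo. In macrophages it stood at 114, 177 and 67.1. The Vehicle-to-Palo ratio was 2.72 (2.48 to 2.98) in stroma and 2.63 (2.48 to 2.80) in macrophages, and the intervals of the classes overlap. That likeness rests on the scaling to class totals. With edgeR's TMM factors the macrophage log2 ratio (5 CPM added) fell from 1.33 to 1.11. The factors shifted this comparison by -0.23 in macrophages and by 0.039 in stroma. After each stromal cell was thinned to 3100 UMIs, 14.9%, 25.1% and 9.78% of stromal cells had an Hk2 UMI in the same order of libraries, and before thinning 32.8%, 65.0% and 31.7%. Thinning changes the reading here, because the unthinned shares of Matrigel-only and Palo were alike while those at equal depth were not.

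Hk1 (chr10:62268855-62379908), the broadly expressed hexokinase bound to mitochondria, moved less. Its stromal levels were 93.4, 118 and 64.8 CPM in Matrigel-only, Vehicle and Palo, and its macrophage levels were 52.3, 65.7 and 35.9. The ratio of Vehicle to Palo was 1.82 (1.69 to 1.96) in stroma and 1.83 (1.67 to 2.01) in macrophages, whereas Vehicle exceeded Matrigel-only only 1.26-fold (1.19 to 1.34) and 1.25-fold (1.15 to 1.37). For Hk1 too, TMM factors lowered the macrophage log2 ratio of Vehicle to Palo, from 0.79 to 0.58. Hk3 (chr13:55005985-55021385), a hexokinase of myeloid cells, was read almost only in macrophages, at 72.5, 104 and 53.3 CPM, against 3.84, 1.31 and 1.20 in stroma. Macrophages held 91.8%, 91.6% and 96.6% of its UMIs in the 3 libraries, although they held only 48.1%, 35.7% and 61.4% of all UMIs. The stromal level is near background: the level that macrophage RNA would bring at the ratio set by C1qa, C1qb, C1qc and Lyz2 came to between 71.7% and 133% of what was measured. In Matrigel-only that reference, 2.76 CPM, lay below the counting interval of the measured level (3.03 to 4.80). The source of the stromal UMIs was not tested. For the other 9 members that reference came to at most 8.07% of the stromal level.

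Within the hexokinases, Hk2 made up 40.1% of UMIs in Matrigel-only stroma, 45.4% in Vehicle and 35.6% in Palo. Vehicle stroma thus held 5.36 points more than Matrigel-only (3.19 to 7.52) and 9.82 points more than Palo (7.10 to 12.5). In macrophages, where Hk3 took 30.3%, 30.0% and 34.1%, Hk2 took 47.8%, 51.0% and 42.9%. Hk2 led the family in macrophages and Hk1 led it in stroma in every library. These are proportions of UMIs, and since capture can differ by gene they are not proportions of enzyme.

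Pfkp (chr13:6579768-6648777), the platelet-type phosphofructokinase, showed the widest difference of the 10 genes in stroma. Its level was 95.1 CPM in Matrigel-only (90.8 to 99.4), 261 in Vehicle (254 to 267) and 72.4 in Palo (68.3 to 76.8). Vehicle was 2.74-fold above Matrigel-only (2.60 to 2.89) and 3.60-fold above Palo (3.38 to 3.84). At 3100 UMIs per cell, 22.5%, 49.2% and 17.9% of stromal cells had a Pfkp UMI, a difference of 26.7 points (23.4 to 30.0) between Vehicle and Matrigel-only and of 31.4 points (27.8 to 34.8) between Vehicle and Palo. In macrophages the levels were 89.97, 153 and 66.8, with Vehicle 1.70-fold above Matrigel-only (1.60 to 1.81) and 2.29-fold above Palo (2.15 to 2.44). The order of libraries was the same in both classes, and the ratios were larger in stroma.

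Pfkl (chr10:77986947-78010083), the liver-type subunit, followed the same order with smaller differences: 149, 229 and 123 CPM in the stroma of Matrigel-only, Vehicle and Palo, and 138, 162 and 99.6 in macrophages. Pfkm (chr15:98092589-98132451), the muscle-type subunit, was low, at 18.1, 22.0 and 14.9 in stroma and 8.54, 7.17 and 6.16 in macrophages. Its Vehicle-to-Palo ratio in macrophages was 1.17 with an interval of 0.903 to 1.497. A difference for Pfkm there was thus not detectable at this depth.

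Because Pfkp moved more than Pfkl, the makeup of the family changed. Pfkp made up 36.2% of phosphofructokinase UMIs in Matrigel-only stroma (34.9 to 37.6), 51.0% in Vehicle (50.1 to 51.8) and 34.4% in Palo (32.8 to 36.0). Pfkl took 56.9%, 44.7% and 58.5%, so over all stromal cells the leading subunit was Pfkp in Vehicle and Pfkl in the other libraries. In Vehicle stroma with a Pi16 UMI, a split described below, Pfkl led at 52.0% against 42.1% for Pfkp. In macrophages, where Pfkl led in all 3 libraries over all cells, Pfkp took 38.1%, 47.5% and 38.7%, 9.44 points more in Vehicle than in Matrigel-only (7.45 to 11.4) and 8.83 points more than in Palo (6.83 to 10.8). Subsets departed from that lead. Pfkp took 55.9% against 43.1% for Pfkl in Vehicle macrophages without Stab1 or Ms4a7, a split described below. In macrophages with a UMI of Mmp12 or Itgax it took 51.0%, 56.3% and 51.1% in Matrigel-only, Vehicle and Palo. The proportion in Matrigel-only and Palo differed by -1.86 points in stroma (-3.92 to 0.217) and 0.611 points in macrophages (-1.34 to 2.56), and both intervals include 0. Within Vehicle the proportion was the same to within counting error in stroma with and without Acan, at 50.9% and 51.0%, a difference of -0.0819 points (-1.97 to 1.80), although both Pfkp and Pfkl were higher in the Acan cells. At 3100 UMIs, 25.9% of Vehicle stromal cells had UMIs of both Pfkl and Pfkp, against 8.34% in Matrigel-only and 5.79% in Palo. The single shares were also highest in Vehicle, at 47.7% against 30.1% and 29.1% for Pfkl and 49.2% against 22.5% and 17.9% for Pfkp. Joint detection beyond these single shares was not tested.

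**Figure D2:**
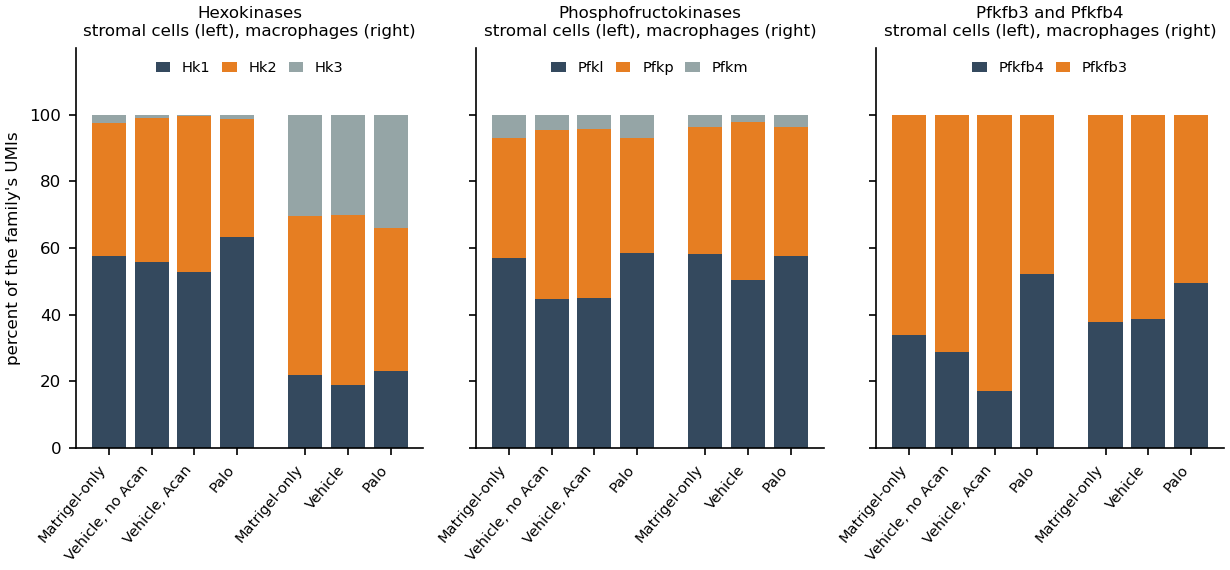
Share of each isoenzyme in the UMIs of its family, in percent, for the hexokinases, the phosphofructokinases and the Pfkfb pair, with 4 bars for stromal cells on the left of each panel and 3 for macrophages on the right. The Pfkp share (orange, middle panel) is near 51% in both kinds of Vehicle stroma and between 34.4% and 38.7% in the Matrigel-only and Palo bars. Lactate dehydrogenase is left out because Ldha was above 98% everywhere.

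Pfkfb3 (chr2:11471433-11554077), the isoenzyme that favours synthesis of the activating bisphosphate, ran with Hk2. Its stromal level was 34.5 CPM for Matrigel-only, 68.6 for Vehicle and 19.6 for Palo, which put Vehicle 1.99-fold above Matrigel-only (1.82 to 2.18) and 3.49-fold above Palo (3.09 to 3.95). In macrophages it was 61.3, 71.4 and 40.2. The Vehicle ratios there were smaller, 1.16 over Matrigel-only (1.07 to 1.27) and 1.78 over Palo (1.63 to 1.94). Pfkfb4 (chr9:108991778-109032228), which does the same with less kinase activity, did not share the full pattern over all cells of either class. It stood at 17.6, 18.5 and 21.5 in stroma and 37.4, 45.1 and 39.3 in macrophages. Vehicle over Matrigel-only was 1.05 in stroma (0.912 to 1.21). In macrophages it was 1.21 (1.08 to 1.34), much like the ratio of Pfkfb3 there, but Palo was not the lowest. Palo was 1.22-fold above Matrigel-only in stroma (1.05 to 1.42) and at 1.05 of it in macrophages (0.957 to 1.15). Vehicle was at 0.863 of Palo in stroma (0.747 to 0.997) and 1.15-fold above it in macrophages (1.04 to 1.27), where TMM scaling turned the log2 ratio from 0.18 to -0.033. A macrophage subset described below differed.

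The balance of the pair followed from this. Pfkfb3 made up 66.2% of the pair's UMIs in Matrigel-only stroma (63.3 to 69.1), 78.7% in Vehicle (76.9 to 80.5) and 47.8% in Palo (43.9 to 51.7), a span of 31.0 points between Vehicle and Palo (26.7 to 35.1). Of the 4 families this was the widest change. In macrophages the shares were 62.1%, 61.3% and 50.6%, so Vehicle and Matrigel-only differed by -0.817 points (-3.97 to 2.33) and Palo lay 11.5 points below Matrigel-only (-14.5 to -8.55 as a difference). Over all cells of each class in Palo, the UMIs of Pfkfb4 and Pfkfb3 were close, at 340 against 311 in stroma and 1078 against 1103 in macrophages. In the other libraries Pfkfb4 had fewer. A macrophage subset described below departed from this in Vehicle.

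Ldha (chr7:46841475-46855627), the A subunit of lactate dehydrogenase, was by far the most captured of the 10. It stood at 1124 CPM in Matrigel-only stroma, 2205 in Vehicle and 1204 in Palo, and at 723, 1157 and 743 in macrophages. Vehicle exceeded Matrigel-only 1.96-fold in stroma (1.93 to 1.99) and 1.60-fold in macrophages (1.57 to 1.64), and Palo 1.83-fold (1.80 to 1.86) and 1.56-fold (1.53 to 1.59). Palo stood at 1.07 of Matrigel-only for Ldha in stroma (1.05 to 1.09) and at 1.03 in macrophages (1.01 to 1.05). The macrophage value depends on the scaling, as TMM took its log2 ratio (5 CPM added) from 0.040 to 0.20, with Palo still the higher. That direction turned in subsets of the cells, split by the fibroblast gene Pi16 (chosen after the data were seen) or by the macrophage genes Stab1 and Ms4a7. The ratio was 0.883 (0.863 to 0.903) in stroma without a Pi16 UMI and 0.860 (0.833 to 0.887) in macrophages without Stab1 or Ms4a7. In the cells with these markers it was 1.12 (1.08 to 1.17) and 1.14 (1.11 to 1.17). After thinning to 3100 UMIs, 82.2%, 96.4% and 88.3% of stromal cells had an Ldha UMI in Matrigel-only, Vehicle and Palo. After thinning to 1400 UMIs, 54.8%, 72.8% and 55.9% of macrophages had one. At that same depth of 1400 UMIs the stromal shares were 63.2%, 87.4% and 70.4%. The annotation holds 2 pseudogenes named after Ldha, so its reads could be split or shared with near-identical copies, and its level is uncertain to that extent.

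Ldhb (chr6:142490249-142507957), the subunit of heart and other oxidative tissue, was low and did not follow Ldha. It was read at 15.3, 11.5 and 14.0 CPM in the stroma of Matrigel-only, Vehicle and Palo, where Vehicle was at 0.753 of Matrigel-only (0.637 to 0.889). In macrophages it was 6.68, 6.62 and 7.29, and the intervals of all ratios there include 1. Ldha accordingly made up 98.7%, 99.5% and 98.8% of lactate dehydrogenase UMIs in stroma and 99.1%, 99.4% and 99.0% in macrophages.

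Members were then counted against all genes, with a call at a ratio of at least 1.5 after adding 5 CPM to each level (a log2 ratio of 0.585), among genes with a mean of at least 5 CPM over the 2 groups. Hk3 did not pass that filter in stroma, and all members passed in macrophages. In stroma, 4 of 9 members tested were higher in Vehicle than in Matrigel-only (Pfkp, Ldha, Pfkfb3 and Pfkl), where 8.57% of 10349 genes were, and 0 were lower, where 13.4% of genes were. Hk2, at a log2 ratio of 0.58, lay just under the limit. Against Palo, 6 of 9 were higher (those and Hk2 and Hk1) and 0 lower, where 7.78% and 9.93% of 10233 genes were. Between Palo and Matrigel-only, 0 were higher and 2 lower in Palo (Hk2 at 0.562 and Pfkfb3 at 0.569 of the Matrigel-only level), where 1.32% and 4.09% of 10230 genes were. The median log2 ratio of the tested members was 0.58, 0.87 and -0.26 in these comparisons, and that of all genes -0.03, -0.01 and -0.03.

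In macrophages, 3 of 10 members were higher in Vehicle than in Matrigel-only (Pfkp, Ldha and Hk2), where 6.5% of 9622 genes were, and 0 were lower, where 4.87% were. Against Palo, 7 of 10 were higher (Hk1, Hk2, Hk3, Pfkl, Pfkp, Pfkfb3 and Ldha) and 0 lower, where 9.03% and 3.33% of 9508 genes were. This count rests on the scaling. The ratio of the TMM factors shifted that comparison by -0.23 on the log2 scale, before 5 CPM was added. With these factors 3 members were still called (Hk2, Pfkp and Hk3), with a members' median of 0.50 in place of 0.71. In Palo against Matrigel-only, 0 were higher and 1 lower (Hk2, at 0.587), where 1.77% and 4.21% of 9467 genes were. TMM shifted that comparison by 0.16 and left 0 members called. The shares of all genes called under TMM are not given here, so the TMM counts cannot be set against a background. Without TMM, the median log2 ratio of the members was 0.27 for Vehicle over Matrigel-only, 0.71 for Vehicle over Palo and -0.41 for Palo over Matrigel-only. That of all genes was 0.003, 0.14 and -0.13, so in the last 2 all genes leaned the same way as the members. Each library enters more than 1 of these comparisons, so they are not independent of each other.

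**Figure D3:**
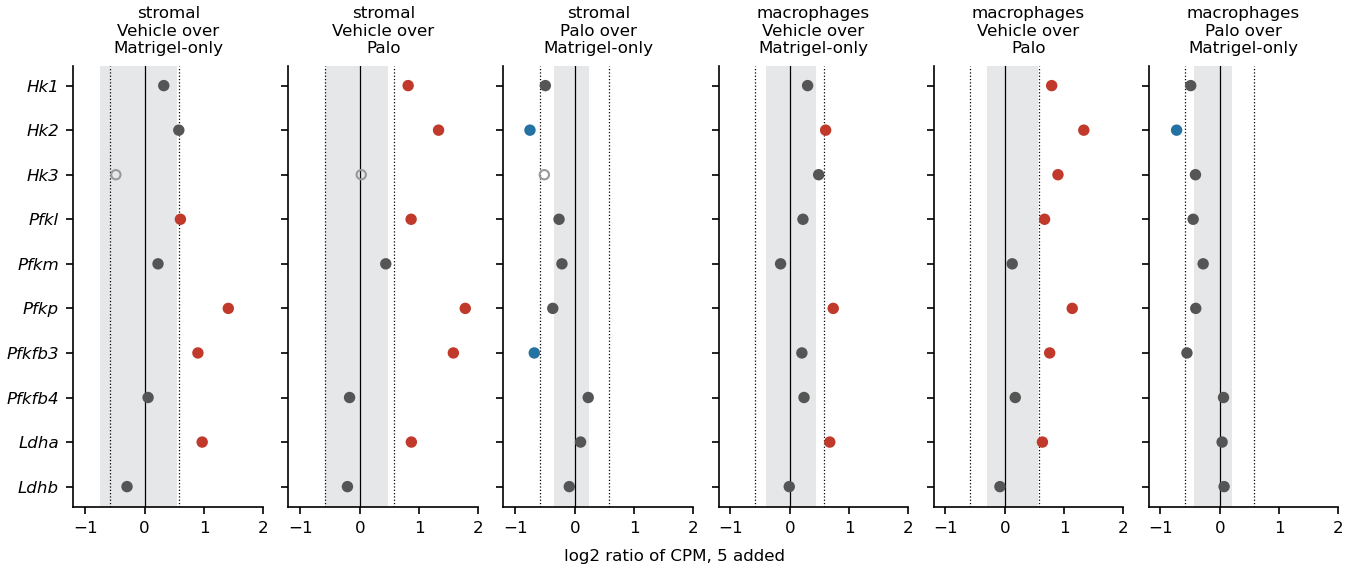
The log2 ratio of each member (5 CPM added) in 6 comparisons, stromal on the left and macrophages on the right. Grey bands span the 10th to 90th percentile of all genes tested, dotted lines mark a ratio of 1.5, red points were called higher, blue points lower, and open circles (Hk3 in stroma) did not pass the filter on low levels. Pfkp lies at 1.41 and 1.78 in the first 2 panels, and Pfkfb4 and Ldhb lie inside the dotted lines in all 6.

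Within Vehicle stroma, cells with and without Acan were compared. No member passed the fold in either direction (0 of 9 higher and 0 lower, where 3.91% and 6.26% of 10115 genes passed), and the median log2 ratio of the members was 0.35, against -0.01 over all genes. Most members were nevertheless higher in the Acan cells. Ldha stood at 1717 CPM without Acan and 2544 with it, a ratio of 1.48 (1.45 to 1.51), and Pfkfb3 at 54.0 and 78.7, a ratio of 1.46 (1.31 to 1.62). Pfkfb4 went the other way, from 21.9 to 16.2, a ratio of 0.737 (0.608 to 0.893). The stroma without Acan stood above Matrigel-only stroma for Pfkp (215 against 95.1) and Ldha (1717 against 1124), but not for Ldhb (10.8 against 15.3). Matrigel-only stroma without a Pi16 UMI, a split described below, read 121 for Pfkp and 1531 for Ldha. It also read 88.0 for Hk2, 201 for Pfkl and 123 for Hk1. Vehicle stroma without Acan read 84.9 for Hk2, 188 for Pfkl and 110 for Hk1. These values were lower. The separate counting intervals overlapped for each gene, for Hk1 only just (103.15 to 116.46 against 116.04 to 129.74). Such overlap does not show that the levels were equal, and ratio intervals for these groups are not given here. That Vehicle group was not cleared of cells with Pi16, so the groups are not alike. With Acan cells kept and Pi16 cells left out of both libraries, Vehicle over Matrigel-only was 1.17 for Hk2 (1.08 to 1.27). It was 1.19 for Pfkl (1.13 to 1.25) and 1.01 for Hk1 (0.94 to 1.08).

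When the Acan cells were divided further by Col2a1, the collagen gene of cartilage, into 372 cells without and 407 with a Col2a1 UMI, the levels of Ldha were 1717, 2233 and 2823 CPM from no Acan to both genes. Pfkp went 215, 269 and 313, Pfkl 188, 237 and 276, and Hk2 84.9, 101 and 116. Pfkfb3 was 54.0, 83.7 and 74.2, without a further increase, while Pfkfb4 was 21.9, 21.4 and 11.4. The Pfkfb3 share of the pair thereby went from 71.1% (67.7 to 74.4) to 79.6% (76.4 to 82.6) and 86.6% (83.7 to 89.2). The Pfkp share stayed between 50.9% and 51.0% across the 3 gates. These gates are also set by detection, which depends on depth, and their median depth rose from 16422 to 16988 and 17641 UMIs. The 10th percentile of depth was 4006 UMIs without Acan and 9191 with it, so shallow cells with undetected Acan can lie in the first gate.

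A second split of the stroma used Pi16, known from fibroblasts of the adventitia and fascia, and was chosen after the data were seen. A cell counts as Pi16-positive by detection, which depends on depth, and the cells with Pi16 had the lower median depth in each library (8419 against 10136 UMIs in Matrigel-only, 14549 against 17358 in Vehicle and 11022 against 13866 in Palo). Cells with a Pi16 UMI made up 55.3% of Matrigel-only stroma, 12.2% of Vehicle stroma (167 cells) and 31.1% of Palo stroma, and in each library they had lower levels of Hk1, Hk2, Pfkl, Pfkp, Pfkfb3 and Ldha than the stroma without it. Ldha, for example, was 703 with and 1531 without Pi16 in Matrigel-only, 1317 and 2309 in Vehicle, and 789 and 1351 in Palo. Among cells without Pi16, Hk1 no longer differed between Vehicle and Matrigel-only beyond counting error, at a ratio of 1.01 (0.940 to 1.08), and Hk2 was at 1.17 (1.08 to 1.27), Pfkl at 1.19 (1.13 to 1.25), Ldha at 1.51 (1.48 to 1.54), Pfkfb3 at 1.53 (1.38 to 1.70) and Pfkp at 2.30 (2.16 to 2.45). Members higher in Vehicle than in Matrigel-only numbered 2 without Pi16 (Pfkp and Ldha), where 6.83% of 10292 genes were higher, and 4 with it (Hk2, Pfkp, Pfkfb3 and Ldha), where 6.65% of 10287 genes were.

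For Vehicle over Palo the ratios of Pfkp, Pfkfb3 and Hk2 without Pi16 were close to those of all stroma, and those with Pi16 were smaller. Among stromal cells without Pi16, Vehicle exceeded Palo 3.50-fold for Pfkp (3.26 to 3.75), 3.40-fold for Pfkfb3 (2.97 to 3.91) and 2.64-fold for Hk2 (2.38 to 2.92), and among those with it 2.20-fold (1.84 to 2.64), 2.35-fold (1.68 to 3.31) and 2.29-fold (1.80 to 2.91). Hk2 in Palo was at 0.444 of Matrigel-only (0.396 to 0.498) without Pi16 and 0.709 (0.574 to 0.871) with it. Members lower in Palo than in Matrigel-only numbered 3 without Pi16 (Hk1, Hk2 and Pfkfb3), where 3.2% of 10179 genes were lower, and 0 with it, where 2.78% of 10214 genes were. The Pfkp share of its family in Pi16 cells was 37.6%, 42.1% and 33.9% in Matrigel-only, Vehicle and Palo, a smaller rise in Vehicle than the 35.6%, 51.5% and 34.5% of cells without Pi16.

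**Figure D4:**
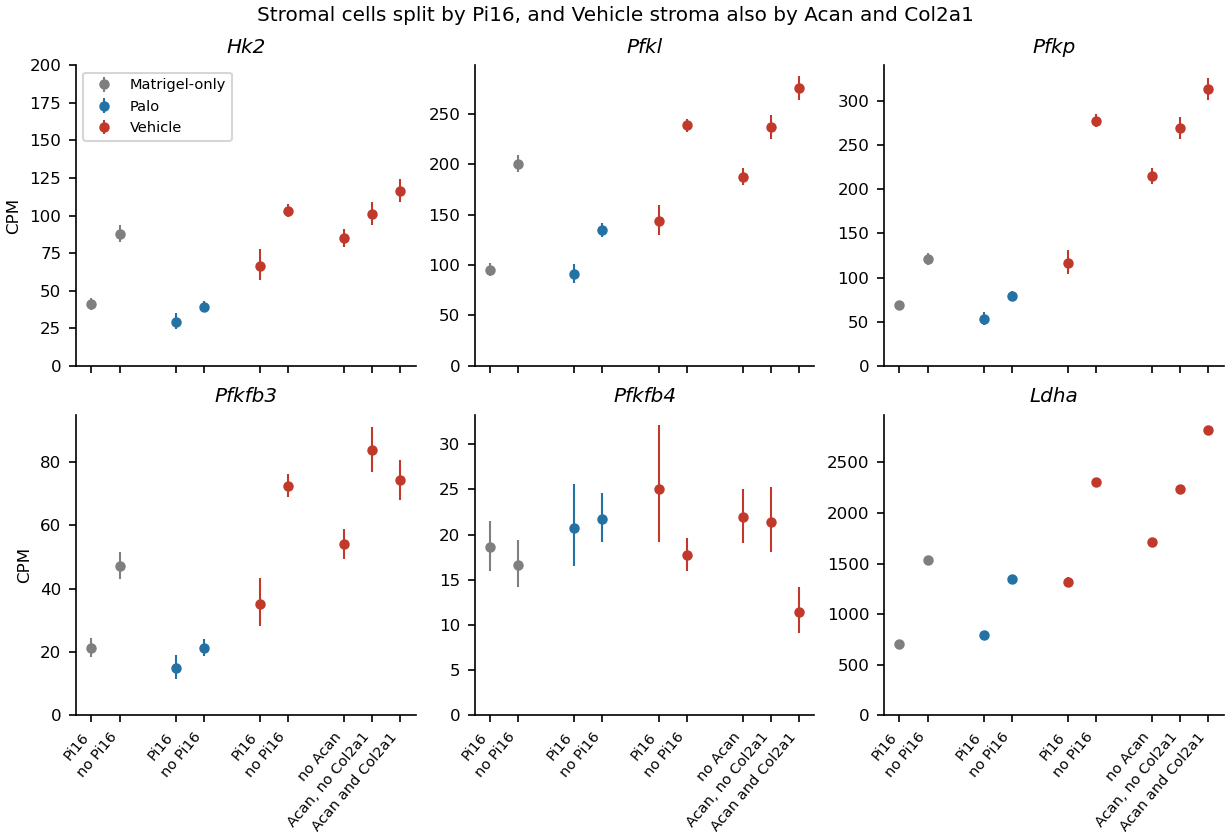
Levels of 6 members in CPM (linear axes from 0, exact Poisson 95% intervals) in stromal cells with and without a Pi16 UMI in each library, and in Vehicle stroma without Acan, with Acan only, and with Acan and Col2a1. Grey is Matrigel-only, blue is Palo and red is Vehicle. Palo cells without Pi16 lie below the Matrigel-only cells without Pi16 for Hk2 (39.1 against 88.0) and Pfkfb3 (21.3 against 47.3). For Pfkfb4 they lie above (21.7 against 16.7), at a ratio of 1.30 (1.07 to 1.59).

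The macrophages were likewise divided, by a UMI of Stab1 or Ms4a7, which 66.3%, 68.9% and 60.0% of macrophages had in Matrigel-only, Vehicle and Palo. Whether the cells with these markers were resident or recruited was not tested. The Pfkp share of phosphofructokinase UMIs was 31.5%, 42.7% and 30.8% with these markers and 45.8%, 55.9% and 46.7% without them, so Vehicle was highest in both and the cells without the markers were higher in every library. Hk3 ran the other way, at 79.5, 120 and 58.8 CPM with the markers and 59.2, 70.6 and 46.3 without. Hk2 differed little by the markers (110, 177 and 62.0 with, 123, 175 and 73.7 without). Pfkl was not higher in Vehicle than in Matrigel-only in cells without the markers, at a ratio of 0.917 (0.835 to 1.01), against 1.35 (1.26 to 1.45) in cells with them. The Pfkfb3 share of its pair was 63.1%, 65.9% and 50.6% with the markers and 59.5%, 50.7% and 50.5% without them. Without the markers, Vehicle exceeded Matrigel-only 1.57-fold for Pfkfb4 (1.31 to 1.89) and Palo 1.36-fold (1.16 to 1.59). With the markers these ratios of Pfkfb4 were 1.05 (0.919 to 1.20) and 1.04 (0.912 to 1.18).

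Cells outside both classes were few, 831, 852 and 452 in Matrigel-only, Vehicle and Palo. Of these in Vehicle, 79 passed a basophil gate of at least 3 UMIs of Mcpt8, Cpa3, Cyp11a1 and Gata2, and read 523 CPM of Hk2, 480 of Pfkp and 201 of Hk3. Pfkp made up 88.7% of their phosphofructokinase UMIs (78.1 to 95.3), on 62 UMIs in all. Cells in a T and NK cell gate, 262 in Vehicle, also favoured Pfkp, at 410 CPM and 74.7% of the family (70.1 to 79.0). In 54 Vehicle cells of a neutrophil gate, in which S100a8 and S100a9 made up at least 1% of UMIs, Hk3 was 283 CPM (141 to 506) on 11 UMIs.

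The rest of the pathway was read from a list of 33 genes, from glucose uptake to lactate export and entry into mitochondria. In stroma, 12 of 23 tested were higher in Vehicle than in Matrigel-only and 1 was lower (all genes 8.57% and 13.4%), and 15 of 22 were higher than in Palo and 0 lower (all genes 7.78% and 9.93%). The higher genes lay along the whole lower pathway: Tpi1 (2.13-fold over Matrigel-only), Gapdh (2.15-fold), Pgk1 (2.21-fold), Pgam1 (2.06-fold) and Pkm (2.07-fold), as well as Slc16a3, the lactate exporter (1.82-fold). Aldoc, an aldolase known from brain and hypoxic cells, went from 1.10 to 22.6 CPM. In macrophages 11 of 25 were higher and 1 lower in Vehicle than in Matrigel-only (all genes 6.5% and 4.87%), and 11 of 25 higher and 1 lower than in Palo (all genes 9.03% and 3.33%), a count of 7 higher with TMM scaling. The lower ones were Pdk2 in stroma, Slc16a7 and Fbp1, of which Pdk2 and Fbp1 are named only because they were the exceptions.

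Slc2a1, a glucose transporter of most cells, had the order of Hk2: 97.3, 147 and 28.7 CPM in the stroma of Matrigel-only, Vehicle and Palo, and 51.6, 118 and 23.6 in macrophages. It was called lower in Palo than in Matrigel-only in both classes, at 0.295 and 0.459. In that comparison the list as a whole had 1 gene higher and 3 lower of 23 in stroma (all genes 1.32% and 4.09%) and 1 higher and 2 lower of 26 in macrophages (all genes 1.77% and 4.21%), with medians of 0.02 and -0.07 on the log2 scale, which turned to -0.18 in stroma without Pi16 and to 0.082 in macrophages with TMM scaling. The 3 lower in stroma were Slc2a1, Slc2a3 (0.493), a second glucose transporter, and Eno2 (0.466), an enolase. Eno1 was called higher in Palo in both classes, but its reads could be shared with the near-identical copy Eno1b and its level is uncertain. With Acan against without, 4 of 23 were higher (Aldoc, Pgam2, Eno1 and Pkm, of which Pgam2 was chosen after its values were seen) and 0 lower, where 3.91% and 6.26% of all genes were.

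**Figure D5:**
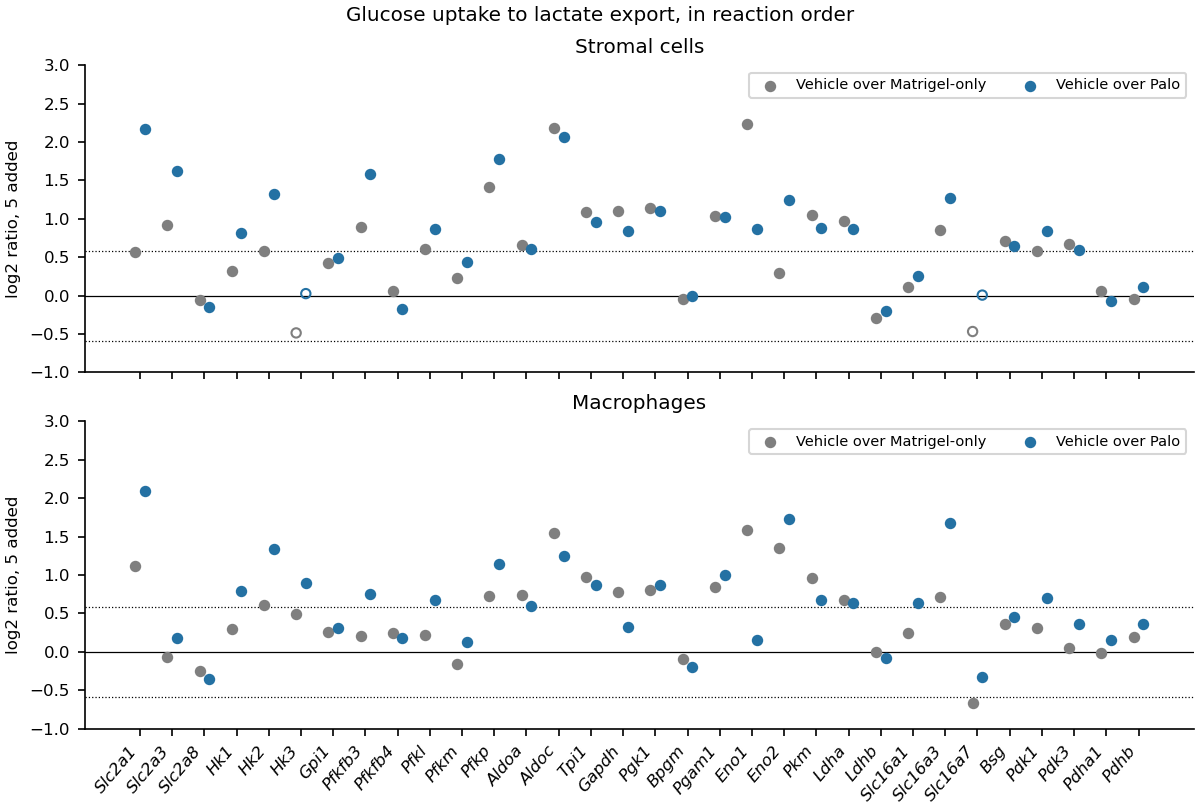
The log2 ratio (5 CPM added) of the 10 members and of the listed pathway genes that reached 20 CPM in any library and class, in reaction order from glucose uptake to lactate export and pyruvate entry, in stromal cells (top) and macrophages (bottom). Grey points compare Vehicle with Matrigel-only and blue points Vehicle with Palo, dotted lines mark a ratio of 1.5, and open circles did not pass the filter on low levels. From Aldoa to Pkm the stromal points lie above the upper dotted line, except both of Bpgm and the grey one of Eno2, and those of Ldhb, Pdha1 and Pdhb lie between the dotted lines.

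Other measures also differed between the groups, not all in the same order. The 8 hypoxia-inducible genes outside the list summed to 1089, 1788 and 603 CPM in the stroma of Matrigel-only, Vehicle and Palo and to 592, 904 and 363 in macrophages, which is the order of Hk2, and Hif1a itself was 173, 202 and 139 in stroma and 68.6, 179 and 65.3 in macrophages. The 9 genes of the dissociation response ran against it, at 1260, 657 and 1364 in stroma and 2583, 2122 and 2874 in macrophages. Red cell genes, all 4 detected, were 6.43, 150 and 4.04 in stroma and 141, 566 and 222 in macrophages, and in Vehicle macrophages the 7 T and NK cell markers summed to 37.3, against 3.93 and 2.44. In the same macrophages basophil markers summed to 0.344, 22.4 and 0.146, and neutrophil markers to 70.2, 126 and 39.3. Endothelial markers summed to 9.38, 53.5 and 6.81 there, and dendritic markers to 98.6, 225 and 172. Skeletal muscle and keratinocyte markers were instead lowest in Vehicle macrophages, and adipocyte markers lay between the other libraries. Chondrocyte markers summed to 2.31, 63.5 and 1.68 in macrophages, and at the ratio set by the 5 stromal genes, or by Acan and Col2a1 in Vehicle, stromal RNA would bring at most 3.63% of any member's macrophage level. The part of these measures in the differences was not tested.

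Genes whose levels ran most like 3 of the members were ranked over 7 levels (4 stromal groups and 3 macrophage groups) among 6726 genes with a mean of at least 20 CPM. For Ldha these were Mif (Pearson r = 0.997), Spout1, Tmed10, Tcp1 and Snd1, and Mif encodes a cytokine. For Hk2 they were Gtpbp2 (r = 0.986), Pes1, Pcgf5, Nampt, which makes a precursor of NAD+, and Atp5k. For Pfkfb3 they were Rpl38 (r = 0.988), Homer1, mt-Nd2, Atp5k and Cops9. With 7 points that share 3 libraries, the ranking is a description.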

How the data were processed

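Dissociated ectopic masses were profiled with 10x Chromium. Per the labels and the study's methods, the authors counted UMIs per gene and barcode with Cell Ranger 3.0.2 on mm10, and the deposited matrices hold raw counts, 44252421, 46317250 and 46901673 UMIs over 9249, 6065 and 7905 barcodes for Matrigel-only, Vehicle and Palo. Here cells with 200 to 6000 genes and at most 5% mitochondrial UMIs were kept. No doublet caller was run, and cells with markers of both classes were left out only as an alternative. UMIs were summed per library and class and divided by the class total. Levels carry exact Poisson intervals, ratios exact conditional binomial intervals, proportions Clopper-Pearson intervals and their differences Newcombe intervals. For shares of cells, each cell was thinned to 3100 UMIs (stroma) or 1400 UMIs (macrophages), leaving out 207, 70 and 54 stromal cells and 567, 303 and 137 macrophages as too shallow. With 1 library per condition no test was run. The calculations (Python 3.11.15, numpy 2.4.6, scipy 1.17.1, and edgeR 4.0.16 for TMM factors) were tested on simulated data. Members were always named, other pathway genes where they reached 20 CPM in any library and class, and like genes as the 5 with the highest correlation of log2 levels. Members and lists were chosen with earlier results of these data known.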

Additional observations from a re-analysis of the deposited data

How the results depend on the processing

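No paired analysis was possible because each condition had 1 library. Pfkm, Ldhb and stromal Hk3 rest on few UMIs. In 18 alternatives no called log2 ratio of a member changed sign, but 14 of the 70 member ratios, none of them called, did under at least 1. Those whose own interval excluded 0 were Ldha in stromal Palo over Matrigel-only (0.099 to -0.18 without Pi16 cells) and in macrophages (0.040 to -0.042 as the mean over cells), Pfkm in stromal Vehicle over Matrigel-only (0.22 to -0.14 in Pi16 cells), Hk3 there (-0.49 to 0.014, again in Pi16 cells), and Pfkfb4 in Vehicle over Palo (-0.17 to 0.22 in Pi16 stroma, 0.18 to -0.033 in macrophages with TMM). The pathway medians of Palo over Matrigel-only also changed sign under some of these. Macrophages without Stab1 or Ms4a7 were not among the alternatives. In them Pfkl in Vehicle over Matrigel-only turned from 0.22 to -0.12, and Ldha in Palo over Matrigel-only from 0.040 to -0.22. Of 760 recomputed log2 ratios of members 658 stayed within counting error and 102 moved, and of 160 isoform differences 141 stayed and 19 moved. Causes were not tested.

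Below, V/M, V/P and P/M stand for Vehicle over Matrigel-only, Vehicle over Palo and Palo over Matrigel-only, and values follow the reported one. Calling at a ratio of 2 took the members higher from 4 to 1 and 6 to 3 in stromal V/M and V/P, from 3 to 0 and 7 to 2 in macrophages, and those lower in P/M from 2 to 0 in stroma and 1 to 0 in macrophages. It took pathway genes higher from 12 to 7 (stromal V/M), 15 to 7 (stromal V/P), 11 to 4 (both macrophage comparisons) and 4 to 2 (Acan), and lower from 3 to 1 (stromal P/M), 2 to 0 (macrophage P/M) and 1 to 0 elsewhere. TMM scaling gave 3 members higher in macrophage V/P and 0 lower in P/M, 1 higher with Acan, pathway counts of 7 higher in macrophage V/P, 2 higher in P/M and 0 lower in stromal V/M, and pathway medians of 0.23 (V/P) and 0.082 (P/M) in macrophages. The shares of all genes at a ratio of 2 or with TMM are not given here. These counts therefore cannot be set against a background.

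The Pi16 split was chosen after seeing the data. Without Pi16 cells, 2 members and 7 pathway genes were higher and 0 lower in stromal V/M, pathway medians were 0.37, 0.74 and -0.18 (V/M, V/P, P/M), the Pfkfb3 proportion differed by 6.40 points (V/M) and Ldha by 0.451 (V/M) and 0.434 (V/P). In Pi16 cells alone, 0 members were lower in P/M, 9 pathway genes were higher in V/P, medians were 0.41, 0.47 and 0.14, and proportions differed by 8.94 points for Hk2 (V/M), 4.57 and 8.23 for Pfkp (V/M, V/P), 4.95 and 16.5 for Pfkfb3, and 1.11 and 1.14 for Ldha. Shares of all genes in the Pi16 split are given above for higher in V/M and lower in P/M. For the other counts of the split they are not given, so those counts lack a background.

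The mean over cells gave a pathway median of 0.78 (stromal V/M), 2 pathway genes lower (macrophage V/M), 2 members lower (macrophage P/M), 1 higher (Acan) and differences of 18.9 points for Pfkfb3 (stromal V/M), 0.819 for Ldha (stromal V/P), and 10.6 for Hk2 and 0.591 for Ldha (macrophage V/P). With no filter on low levels pathway medians were 0.39, 0.49, 0.24 and 0.31 (stromal V/M and V/P, macrophage V/M and V/P). Adding 1 instead of 5 gave pathway genes lower of 2, 4 and 1 (macrophage V/M, macrophage P/M, Acan) and 2 members lower (macrophage P/M). In Stab1 or Ms4a7 macrophages the pathway median was 0.49 (V/M), Pfkfb3 differed by 2.75 (V/M) and 15.3 points (V/P), Pfkp by 11.9 (V/P), and 2 members were lower and 2 pathway genes higher in P/M. A mitochondrial limit of 10%, all barcodes and a stromal limit of 2% each gave 0 pathway genes lower in stromal V/M, the first 2 a Ldha difference of 0.621 and 0.586 points (macrophage V/M), and all barcodes 1 member higher with Acan. At 3 macrophage UMIs 2 members were lower in macrophage P/M, and at 3 Acan UMIs 1 member and 7 pathway genes were higher. The shares of all genes under the settings of this paragraph are not given here either, so its counts cannot be set against a background.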
